A study of Mus musculus with 4 samples.

Results

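The gaps between H3K4me2 peaks that hold LSD1 are short stretches where a called LSD1 peak reaches into, or across, the space between neighbouring H3K4me2 peaks in mouse embryonic stem cells. A gap was counted when it was 100 to 600 bp wide, lay on an autosome, had neighbouring H3K4me2 peaks of at least 300 bp each and shared at least 1 bp with an LSD1 peak. By this rule 265 of 4563 gaps of the same definition held LSD1, which is 5.81% (exact Clopper-Pearson 95% interval 5.15% to 6.53%), and 4298 did not. The members were thus chosen by the LSD1 and H3K4me2 peak calls themselves, so their LSD1 values describe them and support nothing, and the low H3K4me2 inside every gap, holding LSD1 or not, is part of the definition.

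The study profiled R1 embryonic stem cells of the 129SV strain, at passages 13 to 18 on gelatin with LIF, by ChIP-seq. It gave 4 libraries, 1 each for LSD1, H3K4me2, control IgG and Input, of cells with no stated mutation or treatment. The LSD1 library held 5833862 reads and the H3K4me2 library 6416657, against 4755619 in the IgG and 3801082 in the Input control. Because each group is 1 library, no p-value is given anywhere and every interval covers counting error only, not the spread between cultures. Cell identity could not be checked against markers, since all the data are ChIP or Input reads.

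LSD1, the product of Kdm1a, is a flavin-dependent demethylase that strips H3K4me2 and H3K4me1 from nucleosomes, and it acts in complexes with CoREST and histone deacetylases. H3K4me2 marks active promoters and enhancers, and it often falls on the nucleosomes either side of a stretch that transcription factors keep open. A gap in the mark can therefore be such an open stretch, a stretch whose nucleosomes carry other marks, or a break in peak calling. The name LSD1 follows the label here: the catalogue number given for its antibody is one known for another supplier's antibody against H3K27me3, and nothing in the 4 libraries checks the target.

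The LSD1 peaks met these gaps mostly with their edges. In 216 of the 265 gaps (81.5%) the LSD1 peak came in from 1 neighbouring H3K4me2 peak and ended inside the gap, from the left in 116 and from the right in 100. It covered the whole gap in 47 and lay inside the gap in 2. The midpoint of the LSD1 peak fell in the gap in 33 of 265 (12.5%, 8.73% to 17.0%). By length, the gap made up 32.8% of the gap plus its 300-bp flanks, the stretches of H3K4me2 peak next to it on either side. Midpoints were not confined to that stretch, so these shares have different bases. The other 232 midpoints lay outside, at a median of 177 bp from the gap's edge (quartiles 105 to 247 bp). The 33 midpoints inside a gap came from 23 of the 49 gaps that were covered or held the whole peak and from 10 of the 216 entered from 1 neighbour. The label "holding LSD1" thus goes further than the data in most members, where the LSD1 peak was centred over a neighbouring H3K4me2 peak or beyond.

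**Figure D1:**
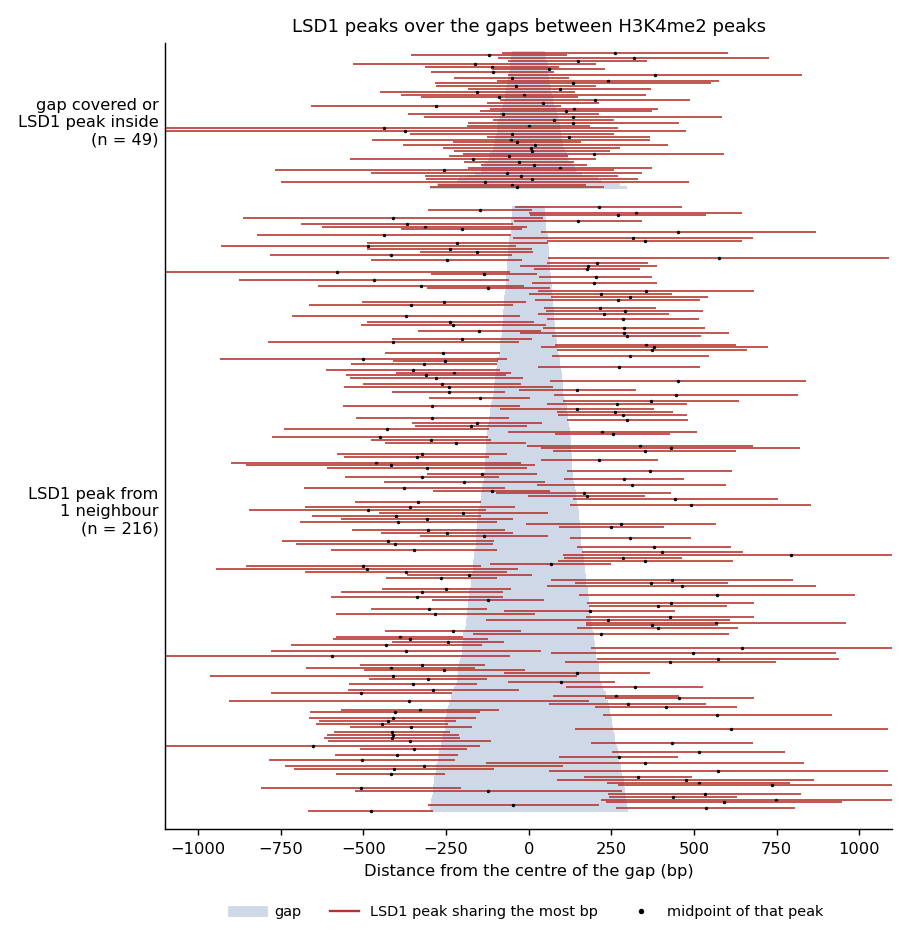
Position of the LSD1 peak (red line, black dot at its midpoint) at each gap holding LSD1, 1 row per gap sorted by width, with distance in bp from the gap's centre on the x axis and the gap shaded. The upper block holds the 49 gaps that were covered or contained the peak and the lower block the 216 gaps entered from 1 neighbour, where most midpoints lie to the side of the gap; lines that reach the frame run on beyond it.

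The overlap was often small. The median gap shared 91 bp with its LSD1 peak (quartiles 34 to 156 bp), or 33.6% of its width (12.3% to 74.9%). Less than 10% of the width was shared in 57 gaps, and at least 50% in 97. The shared stretch was at most 100 bp in 144 gaps, 143 of them entered from 1 neighbour. Counting each read 100 bp downstream of its start, near the middle of a fragment, 58 of the 216 gaps entered from 1 neighbour (26.9%) and 0 of the 49 covered or containing gaps had no LSD1 read in the shared stretch itself. These counts depended on the position given to a read, and were 33 (15.3%) and 1 with starts left in place, and 81 (37.5%) and 0 with starts moved by 50 bp.

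Gaps on either side of the rule's limit of 1 bp held few reads. Just inside it, the gap at chr8:123156140-123156535 (mm9) met the last base of an LSD1 peak and had 7 LSD1, 10 H3K4me2, 6 IgG and 3 Input reads. A gap at chr9:106270073-106270264, also sharing 1 bp, had 1 LSD1, 0 H3K4me2, 1 IgG and 0 Input reads, and the third such gap, on chromosome 18, had 4 LSD1 and 3 H3K4me2 reads. Just outside it, the gap at chr2:101636751-101636864 ended at the base before an LSD1 peak and had 4 LSD1, 1 H3K4me2, 0 IgG and 0 Input reads. The next nearest, each 1 bp from an LSD1 peak, had 0 LSD1 reads at chr7:148407670-148407792 and 1 at chr10:120747899-120748000, with 0 H3K4me2 reads in both. LSD1 counts were thus 7, 1 and 4 just inside the limit and 4, 0 and 1 just outside it.

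Seen over all 4563 gaps, LSD1 peaks were scarcer in gaps than in the H3K4me2 peaks beside them. They covered 2.16% of the gaps' bases, 6.87% of the flanks' bases and 8.32% of all autosomal H3K4me2 peak bases. LSD1 midpoints numbered 33 in the gaps, or 24.0 per Mb, against 383 in the flanks, or 140 per Mb, and 4547 in all autosomal H3K4me2 peaks, or 165 per Mb. In all, 266 LSD1 peaks touched a gap, out of 5095 autosomal ones. Taking for each gap the LSD1 peak that shared the most bp, the median peak width was 510 bp, against 461 bp for all autosomal LSD1 peaks. A wider peak meets a gap more readily, so nothing is read from that difference.

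The gaps holding LSD1 resembled the other gaps in size and setting. Their median width was 265 bp (quartiles 163 to 396), against 278 bp (174 to 416) for the other gaps. The neighbouring H3K4me2 peaks had a median width of 735 bp at gaps holding LSD1 and 753 bp at other gaps. The share of gaps holding LSD1 was 6.50% at 100 to 149 bp, 6.58% at 550 to 600 bp and lowest, at 2.99%, at 450 to 499 bp, with no steady trend. Covered gaps and gaps with the peak inside were narrower, with a median of 181 bp, against 302 bp for gaps entered from 1 side. H3K4me2 peaks joined over distances of up to 1 kb formed chains with a median of 2 peaks in both sets, spanning a median of 2221 bp around gaps holding LSD1 and 2312 bp around other gaps. An LSD1 peak that did not meet the gap lay within 5 kb of 85 gaps holding LSD1 (32.1%, 26.5% to 38.1%). The same held for 1402 other gaps (32.6%, 31.2% to 34.0%), a difference smaller than the counting error. For gaps holding LSD1 this is a further peak, while for other gaps it can be the only one. Both shares thus measure different things, and no likeness is read from them.

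Gaps holding LSD1 were found on all 19 autosomes. Chromosome 19 had the highest share, 13 of 155 gaps (8.39%, 4.54% to 13.9%), and chromosome 12 the lowest, 5 of 161 (3.11%, 1.02% to 7.10%). The intervals of the highest and the lowest overlap. The members are not all separate events: 3 LSD1 peaks met 2 gaps each, 5 gaps shared a neighbouring H3K4me2 peak with another member, and 4 gaps met 2 LSD1 peaks. No gap holding LSD1 touched an IgG peak or held 20 or more Input reads, the mark used here for an anomalous region, and 1 other gap did.

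Reads were scaled to reads per 1000000 reads of the library per kb (RPM per kb). Summed over the 265 gaps, LSD1 reached 3.98 RPM per kb inside the gaps and 5.62 in the flanks, a gap-to-flank ratio of 0.708 (95% interval 0.671 to 0.747). H3K4me2 reached 2.57 in the gaps and 7.23 in the flanks, a ratio of 0.356 (0.335 to 0.378). IgG was even, at 1.20 in gaps and 1.19 in flanks, and Input was at 0.318 in gaps and 0.339 in flanks. Thus LSD1 was lower in these gaps than beside them, but by less than H3K4me2, and IgG differed by less than its counting error.

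In the other 4298 gaps LSD1 was at 2.35 RPM per kb, against 3.49 in their flanks, a ratio of 0.674, and H3K4me2 at 2.31 against 6.70, a ratio of 0.344. A dip in LSD1 reads accompanied the dip in H3K4me2 in both sets. The ratio of LSD1 to H3K4me2 reads, each in RPM, was 1.55 (1.44 to 1.66) in gaps holding LSD1 and 1.02 (0.999 to 1.04) in other gaps. LSD1 exceeded H3K4me2 by that measure in 196 of 265 gaps holding LSD1 and in 2266 of 4298 other gaps. This contrast rests on the LSD1 reads by which the gaps were chosen.

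LSD1 reads in the gap depended on how the peak met it. In the 49 covered or containing gaps LSD1 stood at 7.58 RPM per kb in the gap and 5.24 in the flanks, a ratio of 1.45 (1.29 to 1.62). H3K4me2 stood at 2.65 in the gap and 7.28 in the flanks, a ratio of 0.363 (0.308 to 0.426), and IgG at 0.955 and 1.24. In the 216 gaps entered from 1 neighbour LSD1 was lower in the gap than outside, at 3.44 and 5.71, a ratio of 0.603 (0.567 to 0.641), with H3K4me2 at 2.56 and 7.22. In the 33 gaps that held the LSD1 midpoint the LSD1 ratio was 1.49 and the H3K4me2 ratio 0.434. Summed over each class, LSD1 reads were thus denser in the gap than in its flanks where the peak spanned or centred on the gap, and thinner where it came in from 1 side. Single gaps were mixed, with LSD1 denser in the gap in 37 of the 49 and in 34 of the 216.

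**Figure D2:**
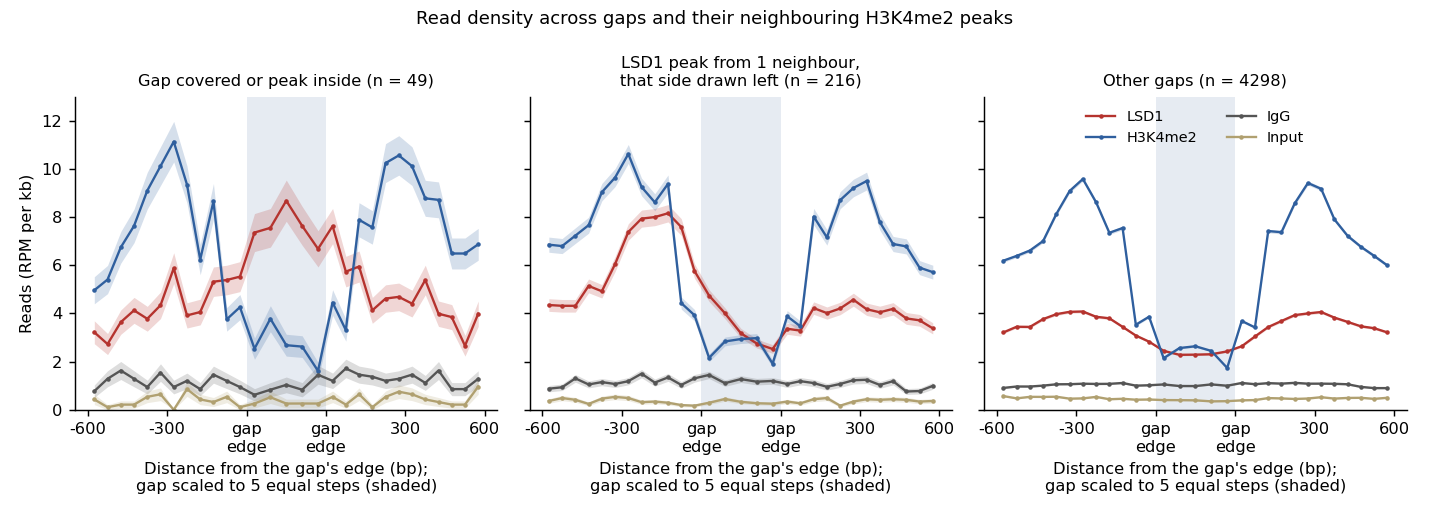
Read density in RPM per kb across the 49 covered or containing gaps, the 216 gaps entered from 1 neighbour (turned so that the LSD1 side is on the left) and the 4298 other gaps, with distance from the gap's edge on the x axis, the gap scaled to 5 equal steps and bands of 1 Poisson SD. LSD1 (red) is highest in the middle of covered gaps, falls across gaps entered from 1 side and dips in other gaps, while H3K4me2 (blue) is low in the gap in all 3 panels; in other gaps IgG (grey) and Input (tan) dip slightly, to 0.942 and 0.843 of their flanks.

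Along the covered or containing gaps, LSD1 was at 7.36, 7.55, 8.68, 7.64 and 6.68 RPM per kb in the 5 equal steps from left to right, with H3K4me2 at 2.68 in the middle step. Gaps entered from 1 side had LSD1 at 4.74 RPM per kb in the step next to the LSD1 peak, then 4.01, 3.18, 2.75 and 2.52. Other gaps had between 2.28 and 2.45 in every step. The far end of a gap entered from 1 side was therefore close to the level of a gap without an LSD1 peak.

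With starts moved 100 bp, H3K4me2 reads dropped before the called edge was reached. In the other gaps its density was 7.55 RPM per kb in the window 100 to 150 bp inside the left neighbour and 3.53 in the window 50 to 100 bp inside. Gaps entered from 1 side had 9.38 and 4.43 in these windows on the LSD1 side. The step lies at 100 bp, the distance by which read starts were moved, in all 3 sets. With starts moved in this way, the last 100 bp of each neighbouring peak held less H3K4me2 than the stretch before it. Whether the step stays with starts left in place was not tested, so the width of the dip is not given by these counts. That stretch is part of every 300-bp flank in the gap-to-flank ratios. In gaps holding LSD1 the H3K4me2 ratio was 0.356 with starts moved 100 bp and 0.328 with starts left in place.

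**Figure D3:**
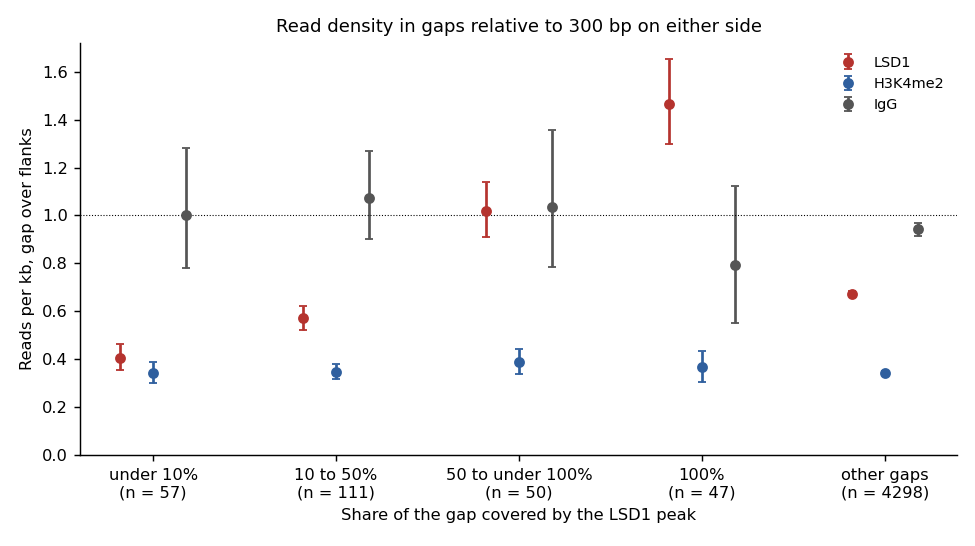
Reads per kb in the gap divided by reads per kb in the 300-bp flanks, for LSD1, H3K4me2 and IgG, by the share of the gap that the LSD1 peak covered, with the 4298 other gaps on the right; bars are 95% intervals for counting error. The LSD1 ratio climbs to 1.47 with coverage while the H3K4me2 ratio stays between 0.342 and 0.387.

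Sorted by how much of the gap the LSD1 peak covered, the LSD1 gap-to-flank ratio was 0.406 below 10% (57 gaps), 0.571 at 10% to 50% (111), 1.02 at 50% to under 100% (50) and 1.47 in fully covered gaps (47). That order follows from the way the classes were made. The H3K4me2 ratio, which was not used to make them, was 0.342, 0.348, 0.387 and 0.366 in the same order. Set against other gaps weighted to the same widths, those H3K4me2 ratios were 0.968 times (0.855 to 1.09), 0.995 times (0.908 to 1.09), 1.13 times (0.992 to 1.29) and 1.23 times (1.04 to 1.46) as high. H3K4me2 was thus not lower in the gaps that LSD1 filled most. In fully covered gaps it was somewhat higher than in other gaps of the same width.

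The comparison with other gaps asks whether the mark dips more deeply where LSD1 is present. The other gaps were weighted to the width classes of the gaps holding LSD1, in steps of 50 bp. The H3K4me2 gap-to-flank ratio was 0.356 in gaps holding LSD1 and 0.343 in other gaps, 1.04 times as high (0.977 to 1.10), higher on 11 of 19 autosomes. The H3K4me2 to IgG ratio in the gaps was 2.14 with LSD1 and 2.27 without, 0.946 times as high (0.846 to 1.06), higher on 9 of 19. In the flanks it was 6.09 with LSD1 and 6.23 without, 0.978 times as high (0.910 to 1.05). Each of these 3 intervals includes 1. The gap-to-flank result depended on which other gaps were used. It was 1.11 times as high (1.05 to 1.18) when the other gaps were also weighted to the H3K4me2 reads of the flanks, and 1.14 times (1.06 to 1.22) against other gaps with an LSD1 peak in a flank, and both of these intervals lie above 1. Against other gaps without an LSD1 peak in a flank it was 1.02 times (0.962 to 1.09), an interval that includes 1. The value was above 1, a shallower dip in gaps holding LSD1, in each of these gap-to-flank comparisons, which share their members. The IgG gap-to-flank ratio was 1.01 in gaps holding LSD1 and 0.942 in other gaps, 1.07 times as high (0.954 to 1.21). A shallower dip particular to H3K4me2 is therefore not shown.

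The background itself differed between the sets. IgG was at 1.20 RPM per kb in gaps holding LSD1 and 1.01 in weighted other gaps, 1.19 times as high (1.08 to 1.31), higher on 13 of 19 autosomes. Input was at 0.318 with LSD1 and 0.382 without, 0.834 times as high (0.678 to 1.03). The IgG to Input ratio was therefore 3.78 with LSD1 and 2.65 without, 1.42 times as high (1.13 to 1.79), and in the flanks 1.46 times as high (1.25 to 1.71). In other gaps with an LSD1 peak in a flank, without weighting, it was 3.90 in the gaps. Against those gaps the members' ratio was 0.939 times as high (0.714 to 1.23), so no difference was seen there. In the flanks it was 2.96, against 3.50 in the flanks of gaps holding LSD1. H3K4me2 density without a control was 1.12 times as high in the gaps (1.06 to 1.19) and 1.08 times as high in the flanks (1.06 to 1.11). Set against Input in place of IgG, H3K4me2 in gaps holding LSD1 was 1.35 times that in other gaps and LSD1 2.04 times. The part of IgG in the LSD1 calls was not tested.

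For LSD1 itself, the values that made the choice, the LSD1 to IgG ratio was 3.31 in gaps holding LSD1 and 2.32 in other gaps, 1.43 times as high (1.28 to 1.59). It was 7.94 in the 49 covered or containing gaps and 2.43 in other gaps of those widths. In gaps entered from 1 side it was 2.78, against 2.30 in other gaps.

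The dip changed with the width of the gap. H3K4me2 gap-to-flank ratios in gaps holding LSD1 and in other gaps were 0.210 and 0.264 at 100 to under 200 bp, 0.350 and 0.324 at 200 to under 300 bp, 0.448 and 0.356 at 300 to under 400 bp, and 0.392 and 0.379 at 400 to 600 bp. The narrow gaps with an LSD1 edge had the lowest H3K4me2 ratio. In the 59 gaps under 200 bp that were entered from 1 side the ratio was 0.163, from 71 reads, against 0.262 in other gaps, 0.621 times as high (0.488 to 0.789). In the 157 wider ones it was 0.398, against 0.362 in other gaps, 1.10 times as high (1.02 to 1.18). With read starts left in place the narrow class gave 0.551 times (0.415 to 0.730), and with starts moved by 50 bp 0.541 times (0.422 to 0.694). In the 31 covered or containing gaps under 200 bp the ratio was 0.305, against 0.263 in other gaps, 1.16 times as high (0.898 to 1.49). The direction was thus opposite in narrow gaps with an edge and in wider ones, so the value over all members sums unlike classes. LSD1 reads dipped more than in other gaps in both classes entered from 1 side. Their gap-to-flank ratio was 0.798 times as high (0.674 to 0.944) under 200 bp and 0.915 times (0.854 to 0.981) in the wider gaps. The choice itself shapes these LSD1 ratios, since an LSD1 peak lies in 1 flank and ends in the gap. They therefore do not show whether the low value in the narrow class was particular to H3K4me2. These width classes were drawn after the values were seen.

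A higher H3K4me2 ratio was found where LSD1 covered or filled the gap. In the 49 covered or containing gaps the gap-to-flank ratio was 0.363, against 0.307 in other gaps, 1.19 times as high (1.01 to 1.39), higher on 11 of the 16 autosomes with a value. In the 33 gaps holding the LSD1 midpoint, 23 of them among the 49, it was 0.434, against 0.346 in other gaps. That was 1.26 times as high (1.08 to 1.46), higher on 8 of the 13 autosomes with a value. Read starts left in place gave 1.33 times (1.13 to 1.56) and 1.21 times (1.03 to 1.42). H3K4me2 in the gaps relative to IgG was 2.77 in the 49 gaps, against 2.09 in other gaps, 1.33 times as high, with an interval of 0.957 to 1.84 that includes 1. In the 33 gaps it was 1.22 times as high (0.900 to 1.65), which also includes 1. The 172 H3K4me2 and 46 IgG reads in these 49 gaps limit the precision.

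The 216 gaps entered from 1 side allow a comparison within the same gap, between the flank from which the LSD1 peak came and the far flank. LSD1, as the choice requires, was at 7.47 RPM per kb on its own side and 3.94 on the far side. H3K4me2 was at 7.70 on the LSD1 side and 6.74 on the far side, with 3203 and 2802 reads, 1.14 times as high (1.09 to 1.20). It was higher on the LSD1 side in 123 gaps, lower in 71 and equal in 22, and on 15 of 19 autosomes. The ratio was 1.16 where LSD1 lay on the left, 1.13 where it lay on the right and 1.14 in the 189 gaps with no LSD1 peak in the far flank. Neighbour widths were alike, with medians of 732 bp on the LSD1 side and 736 bp on the far side.

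IgG moved the same way, with 385 and 340 reads, 1.13 times as high on the LSD1 side (0.976 to 1.31). Divided by IgG, H3K4me2 was 1.01 times as high on the LSD1 side, with an interval of 0.865 to 1.18. Input was 0.881 times as high (0.636 to 1.22). The excess of H3K4me2 on the LSD1 side is thus a difference in reads that was not detectable once set against IgG, and the part of the background in it was not tested. In 546 other gaps with an LSD1 peak in only 1 flank, none of it in the gap, H3K4me2 was 1.05 times as high on that side (1.01 to 1.08) and IgG 1.10 times (1.00 to 1.22). Within the gap, the near and the far part of the 216 gaps differed in LSD1, at 4.19 and 2.69 RPM per kb, but had H3K4me2 at 2.61 and 2.52, a ratio of 1.04 (0.920 to 1.17).

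**Figure D4:**
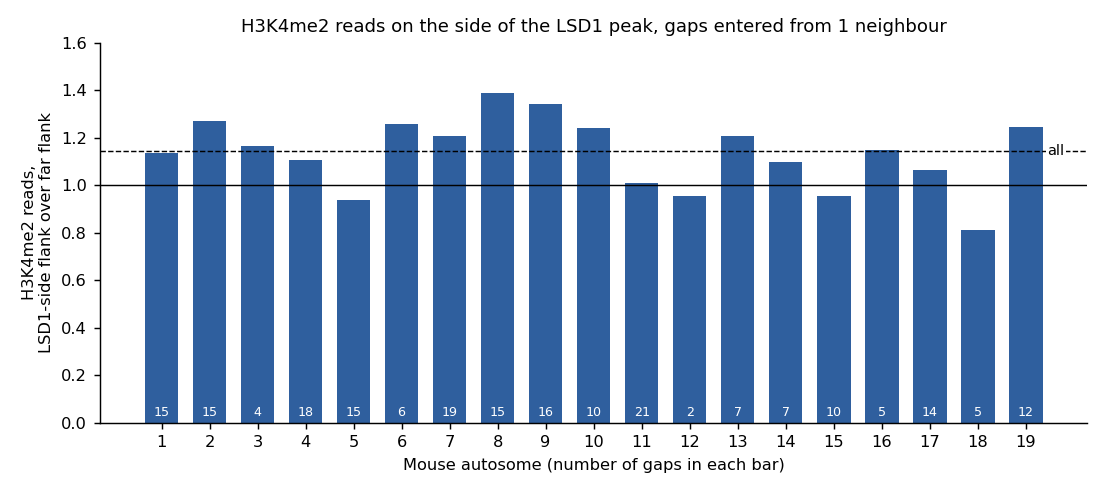
H3K4me2 reads in the flank on the side of the LSD1 peak divided by those in the far flank, per autosome, for the 216 gaps entered from 1 neighbour; white digits give the number of gaps, the solid line marks 1 and the dashed line all gaps together (1.14). The bars are above 1 on 15 of 19 autosomes and below it on chromosomes 5, 12, 15 and 18.

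Single gaps held few reads. A gap holding LSD1 had a median of 6 LSD1 reads (quartiles 3 to 9, range 0 to 27), 4 H3K4me2 reads (1 to 8), 1 IgG read and 0 Input reads. The other gaps had medians of 4 LSD1, 4 H3K4me2 and 1 IgG reads. No LSD1 read fell in 8 gaps holding LSD1, and no H3K4me2 read in 48. At this depth the LSD1 to IgG interval lay above 1 in 56 of the 265 gaps holding LSD1 (21.1%), against a background of 6.66% over all 4563 gaps, and since the rule used LSD1 nothing is read from that count. Of the 56, 24 were among the 49 covered or containing gaps and 32 among the 216 entered from 1 side. The H3K4me2 to IgG interval lay above 1 in 20 of the 265 (7.55%, 4.67% to 11.4%) and 351 of the other gaps (8.17%), near the background of 8.13%. LSD1 density was higher in the gap than in its flanks in 71 gaps holding LSD1 (26.8%) and 1118 other gaps (26.0%), and H3K4me2 density in 2 gaps holding LSD1 and 49 other gaps.

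The member with the most LSD1 reads lay on chromosome 17, at chr17:27638629-27639209 (mm9), 581 bp wide between H3K4me2 peaks of 499 and 659 bp. It had 27 LSD1, 9 H3K4me2, 5 IgG and 1 Input reads in the gap, and its LSD1 peak of 806 bp came from the left and covered 98.5% of it. Its LSD1 to IgG ratio was 4.40 (1.67 to 14.6), and the 300-bp flanks had 11 and 6 LSD1 reads. The gap was fuller of LSD1 than either flank, at 1.64 times their density. No name is given to genes near these gaps, as no annotation of mm9 was at hand.

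Both gaps that held a whole LSD1 peak were wide. The gap at chr17:37095326-37095921, 596 bp, had 25 LSD1, 13 H3K4me2, 4 IgG and 3 Input reads. The gap at chr12:12949977-12950531, 555 bp, had 21 LSD1, 7 H3K4me2, 0 IgG and 0 Input reads. With a floor of 3 IgG reads in place of 0, LSD1 to IgG was 5.71, which is not a lower bound. For this gap the interval from the counts themselves had a lower limit of 4.24. H3K4me2 reads in its flanks numbered 24 on the left and 13 on the right, so this is a gap with a clear dip in the mark and a peak of LSD1 within it.

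Among fully covered gaps, chr1:121201822-121202239, 418 bp, had 22 LSD1, 7 H3K4me2 and 2 IgG reads, with 6 and 7 LSD1 reads in its flanks. The gap at chr12:81216495-81216869, 375 bp, had 19 LSD1, 9 H3K4me2 and 2 IgG reads, with LSD1 at 2.76 times its flanks. Of the members with 10 or more LSD1 reads, chr10:75300118-75300293, 176 bp, had the highest LSD1 gap-to-flank ratio, 3.01. It had 15 LSD1, 0 H3K4me2 and 2 IgG reads in the gap, while its flanks had 15 and 12 H3K4me2 reads. H3K4me2 reads were thus absent from this gap, while LSD1 reads were above the members' upper quartile.

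High LSD1 counts also occurred in gaps entered from 1 side. The gap at chr11:120657225-120657784 had 20 LSD1, 8 H3K4me2 and 3 IgG reads with 31.1% of its width covered, and its left flank, from which the peak came, had 21 LSD1 reads. The gap at chr1:88383770-88384363 was 85.9% covered and had 20 LSD1 and 14 H3K4me2 reads, but with 8 IgG reads its LSD1 to IgG ratio was 2.04 (0.860 to 5.35), an interval that includes 1. At the other end, chr2:165967753-165967854, 102 bp wide, had 0 LSD1, 0 H3K4me2 and 1 IgG reads although an LSD1 peak covered 46.1% of it, and its right flank, on the LSD1 side, had 14 LSD1 reads.

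Gaps outside the set reached comparable counts, in examples picked for having the most LSD1 reads among the other gaps. The gap at chr5:110528136-110528655 shared no base with an LSD1 peak, the nearest lying 385 bp away, yet had 20 LSD1, 11 H3K4me2, 2 IgG and 4 Input reads. The gap at chr1:94538042-94538589 had 19 LSD1, 10 H3K4me2 and 2 IgG reads, and its nearest LSD1 peak lay 265522 bp away. Set against IgG, LSD1 was 8.15 times as high (1.98 to 71.9) in the first gap and 7.74 times (1.87 to 68.6) in the other, within the range of the 10 members with the most LSD1 reads, where it went up to 15.5. The high ratios follow from that choice and rest on 2 IgG reads in each gap, so they support nothing further. Absence of a called LSD1 peak therefore does not mean absence of LSD1 reads.

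The 4 gaps that met 2 LSD1 peaks had few reads. On chromosome 19, chr19:5272901-5273245 had 9 LSD1, 8 H3K4me2 and 0 IgG reads, and the gap at chr4:153349145-153349390 had 5 LSD1, 3 H3K4me2 and 1 IgG reads. All 4 had 4 to 9 LSD1 reads, within the range of the other members.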

How the data were processed

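For each library the authors deposited aligned 36-base reads, 1 line per read, and for LSD1, H3K4me2 and IgG a peak list of positions on mm9, per the submitters' processing notes. Formaldehyde-fixed chromatin was sonicated and library fragments of about 200 bp were taken from a gel, per the labels' protocols. The sources used here name no aligner, peak caller, threshold or control for calling. The deposited reads were used as counts, and each library listed a given start and strand at most once, so counts saturate where signal is dense. Each start was moved 100 bp along its strand. Densities are RPM (reads per 1000000 library reads) per kb.

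Ratios of 2 summed counts carry exact binomial 95% intervals, shares carry Clopper-Pearson intervals, and width-weighted comparisons carry log-scale Poisson intervals. The width-weighted method alone was tested on simulated counts. These were Poisson draws with counting error only, so they do not show how the intervals hold for reads that vary more. A ratio to 0 reads used a floor of 3 reads in that library. Single gaps were named by rank: the 10 members with the most LSD1 reads, the 5 with the highest gap-to-flank ratio among those with 10 or more, the 5 with the fewest, the 5 other gaps with the most, the 3 nearest the rule's limit on each side, and those meeting 2 LSD1 peaks; only some are printed. The members, classes and comparisons were chosen with earlier results of these data known. Sequence content and distances to gene starts were not analysed here, as no mm9 genome or annotation was used. Tables were handled with pandas 2.3.3 and numpy 2.4.6 under Python 3.11.15, intervals came from scipy 1.17.1, and figures from matplotlib 3.10.9.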

Additional observations from a re-analysis of the deposited data

How the results depend on the processing

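Each of 8 results was recomputed under other settings, giving 53 values. Of these, 40 stayed inside the interval of the reported value, 12 were counted as moved and 1 as reversed. The 12 include the gap numbers 97 and 148, which have no interval. They also include values of H3K4me2 to IgG that crossed 1. In gaps it went from 0.946 to 1.13, 1.35 and 1.13, and in flanks from 0.978 to 1.43. The reported intervals of both include 1. Requiring the LSD1 peak to cover at least 50% of the gap left 97 gaps and gave members over other gaps of 2.39 for LSD1 to IgG, 1.13 for H3K4me2 to IgG and 1.17 for the H3K4me2 gap-to-flank ratio. Input in place of IgG gave 2.04 for LSD1 in gaps, 1.35 for H3K4me2 in gaps and 1.43 for H3K4me2 in flanks. Gaps of 150 to 400 bp left 148 members. Other settings were chosen after seeing the data. Weighting other gaps by width and flank H3K4me2 gave 1.11 (1.05 to 1.18) for the H3K4me2 gap-to-flank ratio. Against other gaps with an LSD1 peak in a flank, LSD1 to IgG was 1.68, H3K4me2 to IgG 1.13 and the H3K4me2 gap-to-flank ratio 1.14 (1.06 to 1.22), while IgG to Input reversed to 0.939 (0.714 to 1.23); the cause was not tested. Against other gaps without an LSD1 peak in a flank, the H3K4me2 gap-to-flank ratio was 1.02 (0.962 to 1.09). The midpoint share and the H3K4me2 side ratio moved under none of the settings tried on them. No paired analysis was possible because only 1 library stands for each antibody or control. Content of sequence and distance to RefSeq starts, both planned, were not run. With 444 IgG and 94 Input reads in the members, the controls limit every ratio to them.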
